A study of Oryza sativa with 51 samples.

Results

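The 150 genes described here are rice genes whose messenger RNA swings widely over the day in flag leaves and stands highest at Zeitgeber time (ZT) 0, called dawn here. They were chosen from 34653 genes by their measured daily curve. For each gene, log2(FPKM + 0.5) was averaged over all lines and days at each of 8 clock hours. FPKM gives the fragments of a gene relative to its transcript length and to the size of the library. A gene qualified with a mean level of 5 FPKM or more, a highest hourly mean at hour 0, and a gap of at least 3 on the log2 scale between its highest and lowest hourly means. This gap is called the range below. Of 237 genes that qualified, the 150 with the largest range were kept.

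The libraries came from flag leaves, the last leaves formed below the panicle, of field-planted rice at grain filling. LY2186 is a hybrid, SE21s is its male-sterile parent and MH86 is its restorer parent, and no treatment or introduced allele is named for any of them. Each line gave 17 strand-specific libraries, 1 every 3 h from ZT0 to ZT48, or 51 in all. The labels do not say whether libraries came from separate plants, so p-values speak only to variation among the libraries, which could be technical. For levels over the day this variation includes how the gap between lines changes with the hour. The labels give no light schedule, so the words dawn (hour 0), early morning (hour 3), dusk (hour 12) and late night (hour 21) name clock hours only.

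A plant's circadian clock is a loop of transcription factors that repress one another in turn through the day and night. Its morning arm is built on MYB-type factors such as LHY, which accumulate around dawn and repress genes of the evening. Genes with a dawn peak are known to include regulators that prepare the chloroplast for light, pigment synthesis enzymes and modulators of flowering.

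A level of 1 FPKM was reached by 15532 to 16629 genes per library. How many fragments lie behind a value is unknown, since low values showed no sharp shared step between libraries. A rough relative depth read from low values, with SE21s at ZT0 set to 1, ran from 0.847 to 2.53. Late night libraries held its lowest values, 0.847 in MH86 at ZT21 and 0.973 in LY2186 at ZT45. The 3 most abundant genes took 24.6% to 68.6% of the FPKM total of a library, and the 150 genes together took 0.0815% to 2.99%. The 4 listed Rubisco genes, which mark leaf, summed to 6002 to 45869 FPKM per library. They are small subunit genes and RCA, the gene of Rubisco activase, which had a range of 11.1 itself. Of other organs, the 5 grain storage markers summed to 1.49 to 55.8 FPKM (1.62 to 15.6 in SE21s, 1.49 to 55.8 in LY2186 and 1.73 to 13.1 in MH86). The 8 floral organ markers summed to 7.42 to 41.9 FPKM (9.49 to 41.9 in SE21s, 10.9 to 25.2 in LY2186 and 7.42 to 20.9 in MH86). No marker of these organs was at 0 in every library, and their part in the results was not tested.

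The shape of the daily curve chose the genes, so it is given as a description without a test. The range had a median of 4.66 on the log2 scale and ran from 3.66 to 10.4, and 56 genes had a range of at least 5. The mean level over all libraries had a median of 52.1 FPKM and ran from the floor of the rule up to 810 FPKM. Most genes bottomed out well after the morning: the lowest hourly mean was at hour 9 in 53 genes, at hour 12 in 64 and at hour 15 in 29. Beside the peak the genes fell into 2 main kinds by their mean over all lines. In 94 the second highest mean was at hour 3, after dawn. In 52 it was at hour 21, before dawn. These kinds do not describe each line. Hour 21 was above hour 3 in 108 genes in SE21s, in 46 in LY2186 and in 33 in MH86. At the edge of the choice, the last genes inside were LOC_Os06g44450, LOC_Os06g49790 and LOC_Os06g29810, with ranges of 3.68, 3.68 and 3.66. The first genes outside were LOC_Os02g45670, LOC_Os10g22430 and LOC_Os06g01972, with 3.65, 3.65 and 3.64. The first of these outsiders is itself a CCA1-type MYB gene.

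**Figure D1:**
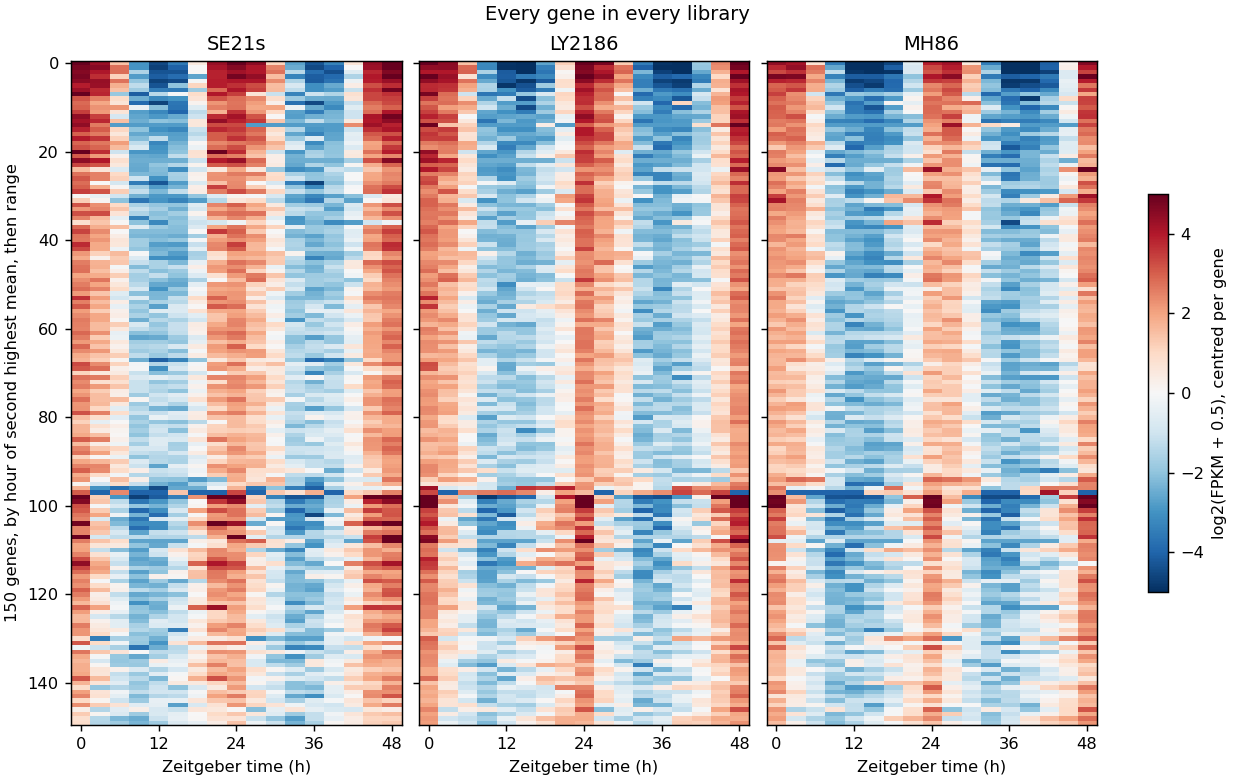
Each row is 1 of the 150 genes and each column 1 library, by line and ZT (h); colour is log2(FPKM + 0.5) centred on the gene's mean over the 51 libraries, clipped at 5 on either side. Rows are grouped by the hour of the second highest mean (94 genes at hour 3 at the top, 52 at hour 21 at the bottom), then by range; the red band before ZT24 and before ZT48 begins earliest in SE21s.

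The pooled dawn peak did not mean that each line peaked at dawn. Taken line by line, the highest hourly mean was at hour 0 in 143 genes in LY2186, in 127 in SE21s and in 109 in MH86. In SE21s, 19 of the remaining genes were highest at hour 21, before dawn. In MH86, 39 were highest at hour 3, after it. The others were 3 at hour 3 and 1 at hour 6 in SE21s, 5 at hour 3 and 2 at hour 15 in LY2186, and 2 at hour 18 in MH86. The highest hour was the same in all 3 lines for 87 genes. The width of the swing was alike in size, with a median range of 4.76 in SE21s, 5.01 in LY2186 and 4.65 in MH86. Dawn libraries of one line taken on different days had correlations across the 150 genes of 0.893 to 0.97 (Pearson's r over genes, which are not independent replicates).

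**Figure D2:**
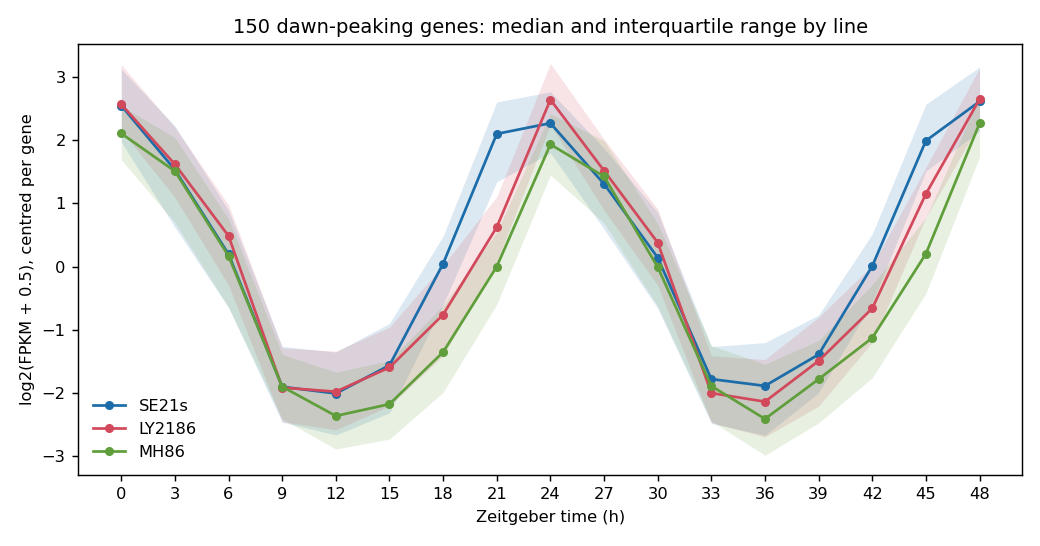
Median (line and points) and interquartile range (band) over the 150 genes of log2(FPKM + 0.5), centred per gene, against ZT (h), with 1 library per line and time. At ZT21 the medians stand at 2.10 in SE21s, 0.62 in LY2186 and 0.00 in MH86, while at ZT24 they stand at 2.27, 2.64 and 1.93.

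A name and a role could be given to 8 of the 150 genes, from lists of rice loci written from general knowledge. Identifiers of this table were not found in the reference gene table, but the symbols LHY, PSY2 and SWEET14 were in it on the same chromosomes (8, 12 and 11). LOC_Os02g46030, a CCA1-type MYB transcription factor gene on chromosome 2, had the widest range of the 150, 10.4 on the log2 scale or 1397-fold. LHY (LOC_Os08g06110), the MYB repressor of the morning arm of the clock, came next with 9.90 or 952-fold. SIG5 (LOC_Os05g50930, chromosome 5) encodes a plastid sigma factor, known from Arabidopsis to direct transcription of chloroplast genes in response to light, and had a range of 8.70. RDD1 (LOC_Os01g15900, chromosome 1), a Dof transcription factor gene, had 8.44. A further CCA1-type MYB gene, LOC_Os06g51260 on chromosome 6, had 6.92, and PSY2 (LOC_Os12g43130), a phytoene synthase of the first committed step of carotenoid synthesis, had 6.60. COL4 (LOC_Os02g39710), a CONSTANS-like repressor of flowering, had 4.25, and SWEET14 (LOC_Os11g31190), a sucrose exporter, had 3.82. Of the genes without a name, LOC_Os02g58310 (9.43) and LOC_Os04g36720 (9.11) swung most widely.

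LHY was the most abundant of the 150 on average. At dawn (ZT0, ZT24 and ZT48) it stood at 3487, 3183 and 4175 FPKM in SE21s, at 2723, 3041 and 3197 in LY2186 and at 1785, 1281 and 2040 in MH86. At dusk (ZT12 and ZT36) it stood at 3.15 and 3.82 FPKM in SE21s, at 2.26 and 2.26 in LY2186 and at 1.89 and 0.998 in MH86. LHY was chosen for its dawn peak and wide range, so the distance between these values is a description and not a result. The profiles of the other 149 genes across the 51 libraries had a median Pearson correlation of 0.914 with that of LHY on the log2 scale, from −0.066 to 0.985. This describes genes chosen for the same peak hour and measured in shared libraries.

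The clock list that holds LHY has 13 genes, of which LHY alone met the rule. Hour 0 was also the highest hour of ELF3-1, ZTL1 and ZTL2, but their ranges were 1.44, 1.08 and 0.402. Of 6 listed CCA1-type MYB genes, 5 were highest at hour 0 and 2 are among the 150. The sixth, LOC_Os04g49450, had a range of 8.95 but was highest at hour 21.

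**Figure D3:**
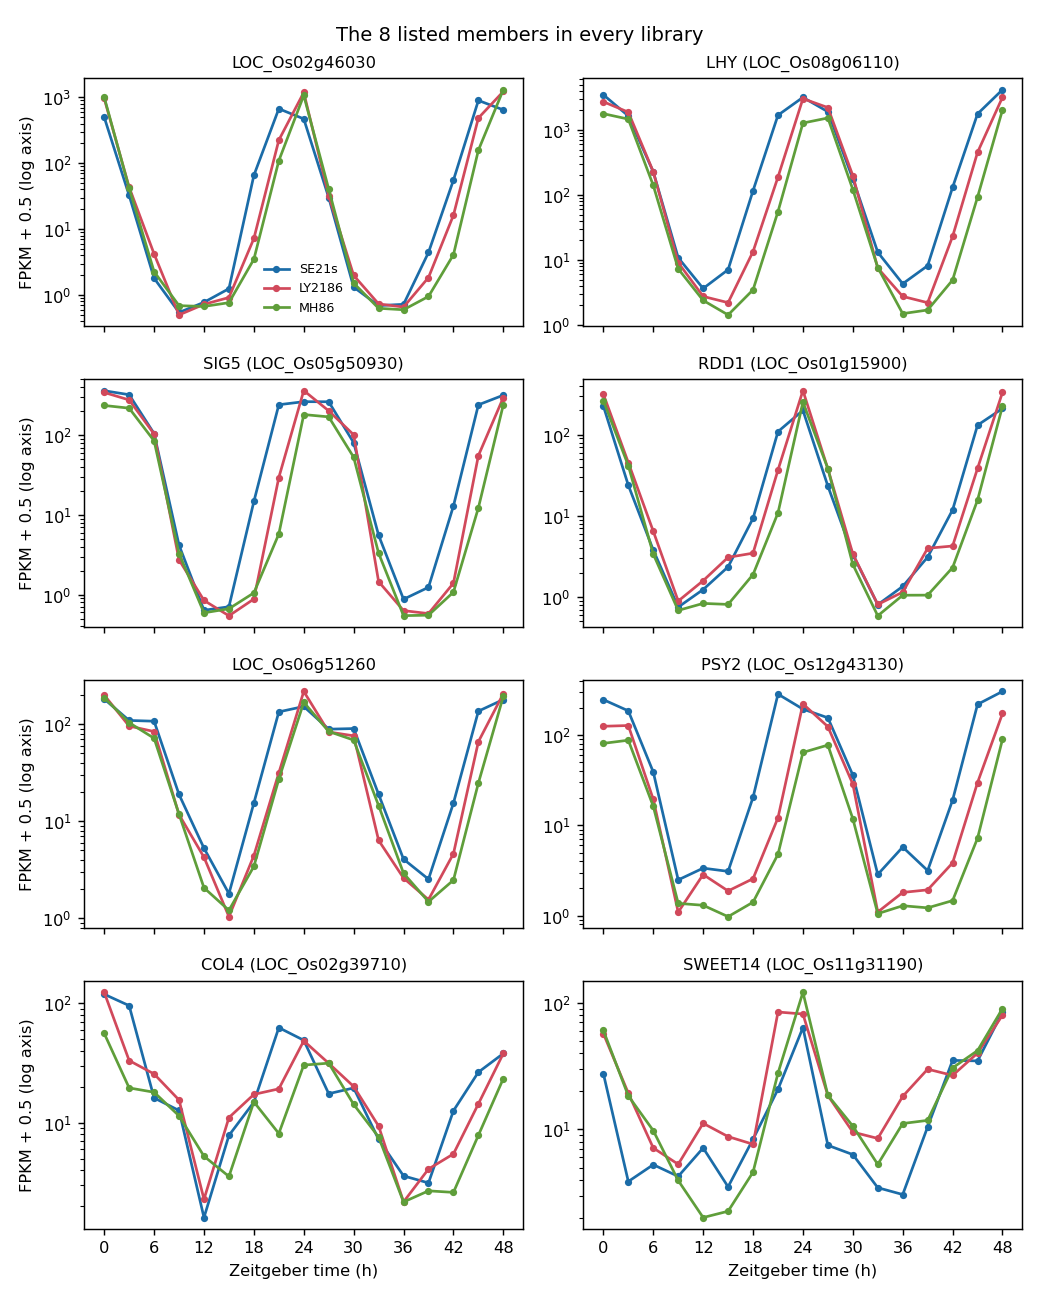
FPKM + 0.5 (log axis) of the 8 named genes in every library against ZT (h), 1 point per library, with lines joining the libraries of SE21s, LY2186 and MH86. In every panel but that of SWEET14 the SE21s points at ZT21 and ZT45 lie above those of both other lines; LHY is at 1692 and 1773 FPKM there in SE21s and at 55.0 and 92.5 in MH86.

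The first comparison asked whether the lines reach the dawn level at the same time of night. It set late night against early morning (hour 21 minus hour 3, 2 libraries each per line) and compared that difference between lines. The rule averaged over lines and set no line against another, but a gene could meet it mainly through 1 line. The range of LOC_Os04g31120 was 3.28 in SE21s and 7.07 in MH86, and that of LOC_Os02g07930 was 6.57 and 3.40. How many genes met the range or the peak hour only through 1 line was not counted. The floor of 5 FPKM could be met in this way too. Without SE21s 4 of the 150 genes fall under that floor, without LY2186 2, and without MH86 none. These are 5 genes in all, and without them (a count added after seeing the data) the calls between SE21s and MH86 below are 96 in place of 99 and those between LY2186 and SE21s 54 in place of 56. In SE21s the late night level was above the early morning level in 108 of the 150 genes, against 46 in LY2186 and 33 in MH86. The median difference was 0.53 on the log2 scale in SE21s, −0.74 in LY2186 and −1.31 in MH86. SE21s differed from MH86 in 99 genes (limma, adjusted p under 0.05 over 16842 genes tested), where the background was 9.17% of all genes tested (5.66% higher and 3.5% lower). All 99 were higher in SE21s in this difference. None was lower, and at an unadjusted p under 0.05 the split was 120 higher and 1 lower. The median over the 150 genes was 1.85, against 0.02 over all genes tested.

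The gap lay in the late night libraries. At hour 21 the median difference between SE21s and MH86 was 1.93 on the log2 scale, with 133 genes higher, while at hour 3 it was 0.01, with 75 higher. Both SE21s libraries at hour 21 were above both MH86 libraries in 125 of the 150 genes (background 28.3% of all genes tested), and both MH86 libraries were above both SE21s libraries in 9 (background 36.9%). At hour 3 these counts were 44 (background 22.7%) and 46 (background 35.6%). The full order SE21s above LY2186 above MH86 held without overlap at hour 21 in 85 genes (background 8.53%) and at hour 3 in 5 (background 5.18%). Taken by day, the median difference of ZT21 and ZT3 was 0.41 in SE21s and −1.36 in MH86, and that of ZT45 and ZT27 was 0.63 and −1.15.

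**Figure D4:**
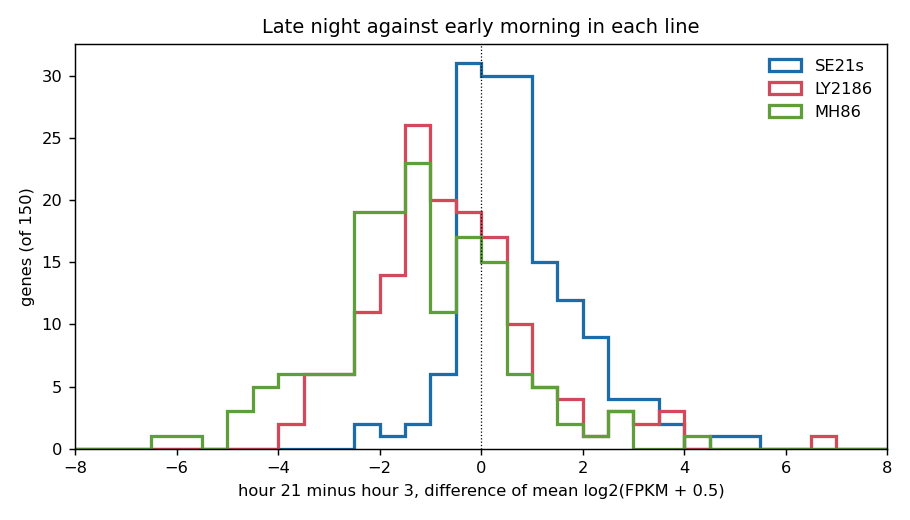
Number of genes of the 150 (vertical axis) by the difference between hour 21 and hour 3 in mean log2(FPKM + 0.5) (horizontal axis, bins of 0.5), drawn as an outline for each line. The SE21s outline sits mostly right of 0 (108 genes) and those of LY2186 and MH86 mostly left of it (46 and 33 genes right of 0).

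Of the 8 named genes, 6 passed this test between the parents. LHY stood at 1692 and 1773 FPKM at ZT21 and ZT45 in SE21s and at 55.0 and 92.5 in MH86. At ZT3 and ZT27 it stood at 1648 and 1912 in SE21s and at 1472 and 1533 in MH86. The clock gene was thus already at its morning level in late night in SE21s and still far under it in MH86. The difference between the lines was 4.35 ± 0.41 on the log2 scale (SE; limma, adjusted p = 1.8e-08). PSY2, the carotenoid gene, was at 284 and 219 FPKM in late night in SE21s and at 4.28 and 6.72 in MH86, against 185 and 155 and then 87.3 and 77.1 in early morning. Its difference was 4.37 ± 0.45 (limma, adjusted p = 7e-08), and its groups at hour 21 did not overlap.

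SIG5, the plastid sigma factor gene, was at 240 and 239 FPKM in late night in SE21s and at 5.26 and 11.8 in MH86. In early morning it was at 321 and 262 in SE21s and at 217 and 169 in MH86, closer together than in late night. The difference was 4.24 ± 0.46 (limma, adjusted p = 2.1e-07). RDD1 was at 109 and 131 FPKM in late night in SE21s and at 10.4 and 15.1 in MH86. By early morning its order had turned, with 23.3 and 22.8 in SE21s and 41.1 and 37.8 in MH86. The difference of this Dof factor gene was 3.96 ± 0.32 (limma, adjusted p = 1.2e-09).

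The MYB genes followed with smaller gaps. LOC_Os02g46030 was at 671 and 897 FPKM in late night in SE21s, above its dawn values there of 500, 471 and 645. In MH86 it was at 109 and 157 in late night and at 1006, 1070 and 1306 at dawn. This gene, with the widest swing, thus had its highest value in late night in SE21s and at dawn in MH86. Its late night difference was 2.96 ± 0.60 (limma, adjusted p = 0.0013). LOC_Os06g51260 was at 133 and 136 FPKM in late night in SE21s and at 26.6 and 24.3 in MH86, with a difference of 2.31 ± 0.39 (limma, adjusted p = 0.00016).

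COL4 and SWEET14 did not pass. COL4 was at 62.1 and 26.1 FPKM in late night in SE21s and at 7.65 and 7.37 in MH86, and its early morning libraries ranged from 17.0 to 95.2 in SE21s. SWEET14 was at 20.2 and 34.3 FPKM in late night in SE21s and at 27.3 and 41.4 in MH86. The differences were 1.63 ± 1.06 and 1.43 ± 1.19 (limma, adjusted p = 0.41 and 0.54). The libraries of both genes were widely spread between days.

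Of the unnamed genes, LOC_Os01g50460 had a difference of 5.83 ± 0.54 (limma, adjusted p = 1.2e-08), from 124 and 138 FPKM at hour 21 in SE21s and 1.64 and 4.90 in MH86. Its neighbour LOC_Os01g50450 is also among the 150, and the log2 profiles of the pair had r = 0.955 over 51 libraries. LOC_Os05g03960 had the highest fitted value, 9.88 ± 1.84 (limma, adjusted p = 0.00054), but the gene is listed at 0 in 24 of its 51 libraries, 2 of them doubtful zeros between high values. Both of its MH86 libraries at hour 21 are listed at 0, so no fold is given.

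The genes with their second highest pooled mean at hour 3 showed the largest gap between the parents. Among the 94 with their second highest mean at hour 3, the median late night difference was 2.14 and 77 were called higher in SE21s. Among the 52 with it at hour 21, the median was 1.39 and 22 were called. This split uses the pooled curve of the same hours, and the difference between the kinds was not tested. The same rule set at hour 3 gave 150 genes, of which 96 were higher in SE21s and 2 lower in this comparison. Set at hour 21, it gave 32 genes, of which 2 were higher and 2 lower. Whether these sets differ from the dawn set was not tested. In the clock list, 1 gene of 13 was called higher in SE21s (LHY) and 3 lower.

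The hybrid stood between its parents in late night. LY2186 differed from SE21s in 56 of the 150 genes (background 4.17%, with 1.76% higher and 2.41% lower), all lower in LY2186. None was higher, and at an unadjusted p under 0.05 the limma split was 1 higher and 98 lower. The median was −1.24 on the log2 scale, against 0.00 over all genes tested. LHY was at 189 and 453 FPKM in late night in LY2186, between the groups of both parents, and differed from SE21s by −2.77 ± 0.41 (limma, adjusted p = 8.1e-05). PSY2, at 11.6 and 29.3 FPKM, differed by −3.28 ± 0.45 (limma, adjusted p = 2.5e-05).

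RDD1, at 36.2 and 38.0 FPKM, differed from SE21s by −2.49 ± 0.32 (limma, adjusted p = 1.2e-05). SIG5 was at 28.9 and 54.8 FPKM and differed by −2.28 ± 0.46 (limma, adjusted p = 0.003). LOC_Os06g51260 was at 31.0 and 65.5 FPKM and differed by −1.42 ± 0.39 (limma, adjusted p = 0.029). That MYB gene lost its call without any of 6 single libraries (adjusted p from 0.051 to 0.32), with a pseudocount of 0.1 (0.058) and with no filter on low values (0.051). LOC_Os02g46030, the other, was at 224 and 485 FPKM and missed the threshold, with −1.48 ± 0.60 (limma, adjusted p = 0.19), but passed with time point as a block (adjusted p = 0.023). Of the unnamed genes, LOC_Os03g18070 was at 132 and 127 FPKM in late night in SE21s and at 6.58 and 12.5 in LY2186, with a difference of −4.00 ± 0.42 (limma, adjusted p = 4.2e-07). LOC_Os08g38170 was at 4.07 and 14.6 FPKM in SE21s and at 0.657 and 0.923 in LY2186. With mean levels of 11.3 FPKM in SE21s and 4.53 in LY2186, it met the floor of 5 FPKM only through SE21s, so this gap is given as values without a test. The LY2186 value was higher at ZT45 than at ZT21 in 6 of the 8 named genes, all but COL4 and SWEET14. Without the LY2186 library at ZT21 the count fell from 56 to 24.

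Against MH86, the difference was above 0 in 133 of the 150 genes, with a median of 0.58 on the log2 scale, but limma called only 2 (background 0.172%, with 0.125% higher and 0.0475% lower), both higher in LY2186. None was lower, and at an unadjusted p under 0.05 the split was 38 higher and 1 lower. The called genes were RDD1, with 1.47 ± 0.32 (limma, adjusted p = 0.048), and LOC_Os01g05840, with 1.43 ± 0.32 (limma, adjusted p = 0.048). LOC_Os01g05840 was at 4.83 and 8.20 FPKM in late night in LY2186 and at 2.63 and 2.02 in MH86. With time point as a block 7 genes were called, among them LHY (1.58, adjusted p = 0.026) and SIG5 (1.97, adjusted p = 0.041), which missed the threshold without it (adjusted p = 0.14 and 0.067). RDD1 lost its call when any of 7 of the 8 libraries of the comparison was left out in turn, so neither count is firm.

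The second comparison asked whether the height of the dawn peak differed between lines, over the 3 libraries of each line at hour 0. SE21s differed from MH86 in 73 genes (background 42.8%, with 18.2% higher and 24.6% lower), 58 higher and 15 lower, with a median of 0.41 on the log2 scale against −0.10 over all genes. The 73 genes are 48.7% of the 150, near the background. Without the 5 genes that fall under the floor of 5 FPKM when 1 line is left out, 70 were called. The dawn calls given below are then 58 between LY2186 and MH86 and 29 between LY2186 and SE21s. LHY was higher in SE21s by 1.10 ± 0.24 (limma, adjusted p = 0.00039), and its dawn libraries did not overlap between the parents. PSY2 stood at 247, 194 and 304 FPKM in SE21s and at 80.5, 63.8 and 89.3 in MH86, a difference of 1.66 ± 0.26 (limma, adjusted p = 5.6e-06). LOC_Os02g46030 went the other way, by −1.07 ± 0.35 (limma, adjusted p = 0.013). That call was lost with a pseudocount of 0.1 (adjusted p = 0.059) and without the MH86 library at ZT48 (0.055).

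RDD1 was at 226, 199 and 210 FPKM at dawn in SE21s and at 263, 252 and 224 in MH86, and its difference of −0.22 ± 0.19 did not pass (limma, adjusted p = 0.36). With quantile scaling it was −0.48 and passed (adjusted p = 0.039). SIG5 stood at 360, 262 and 317 FPKM in SE21s and at 235, 181 and 240 in MH86, and missed the threshold too (0.52 ± 0.27; limma, adjusted p = 0.12). Of the unnamed genes, LOC_Os02g07930 was at 155, 73.0 and 128 FPKM in SE21s and at 7.61, 11.8 and 6.47 in MH86, a difference of 3.68 ± 0.58 (limma, adjusted p = 6.4e-06). LOC_Os07g06700 was also higher in SE21s, by 2.75 ± 0.37 (limma, adjusted p = 4.5e-07), but is listed at 0 in 20 of its 51 libraries and averaged 3.16 FPKM in MH86. In the opposite direction, LOC_Os04g31120 was at 29.8, 31.5 and 38.4 FPKM in SE21s and at 305, 455 and 535 in MH86, a difference of −3.65 ± 0.28 (limma, adjusted p = 5.5e-12). LOC_Os11g05700 differed by −2.96 ± 0.36 (limma, adjusted p = 6.2e-08). None of these groups overlapped.

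The hybrid's dawn level was above that of MH86 in 59 genes and below it in none (background 14.5%, with 6.77% higher and 7.69% lower). At an unadjusted p under 0.05 the limma split was 79 higher and 3 lower. The median difference was 0.61 on the log2 scale, against −0.06 over all genes, and 132 of the 150 differences were above 0. Every LY2186 dawn library was above every MH86 dawn library in 90 genes (background 13.4%). PSY2, at 125, 222 and 173 FPKM in LY2186, was higher than in MH86 by 1.12 ± 0.26 (limma, adjusted p = 0.0029), and LHY by 0.83 ± 0.24 (limma, adjusted p = 0.016). RDD1 was not called (0.44 ± 0.19; limma, adjusted p = 0.12), but passed with time point as a block (adjusted p = 0.024). LHY lost its call without the MH86 library at ZT24 (adjusted p = 0.13) or without the LY2186 library at ZT24 or ZT48 (adjusted p = 0.053 and 0.055). LOC_Os12g24580 was at 82.3, 176 and 123 FPKM in LY2186 and at 1.81, 14.4 and 10.9 in MH86, a difference of 4.06 ± 0.91 (limma, adjusted p = 0.0019). That gene is listed at 0 in 18 of its 51 libraries and averaged 2.48 FPKM in MH86. LOC_Os02g07930 was higher by 2.34 ± 0.58 (limma, adjusted p = 0.0056). Without the MH86 library at ZT24 the count of 59 fell to 26, and without the LY2186 library at ZT24 to 33.

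Between LY2186 and SE21s, 30 genes were called at dawn (background 23.9%, with 13.1% higher and 10.8% lower), 24 higher and 6 lower in the hybrid, with a median of 0.16. The share called is near the background. LOC_Os02g46030 was at 963, 1187 and 1227 FPKM in LY2186, above all SE21s dawn libraries, and was higher by 1.07 ± 0.35 (limma, adjusted p = 0.023). That call was lost with a pseudocount of 0.1 (adjusted p = 0.091) and without any of 4 single dawn libraries (adjusted p from 0.067 to 0.077). RDD1, at 316, 350 and 333 FPKM in LY2186, was higher by 0.65 ± 0.19 (limma, adjusted p = 0.01). LOC_Os03g53540 was at 24.9, 37.0 and 32.9 FPKM in SE21s and at 184, 286 and 297 in LY2186, a difference of 2.98 ± 0.28 (limma, adjusted p = 1.2e-09). LOC_Os04g31120, low in SE21s, was higher in the hybrid by 2.89 ± 0.28 (limma, adjusted p = 3.2e-09). In the other direction, LOC_Os01g22010 had −0.85 ± 0.21 (limma, adjusted p = 0.0027).

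**Figure D5:**
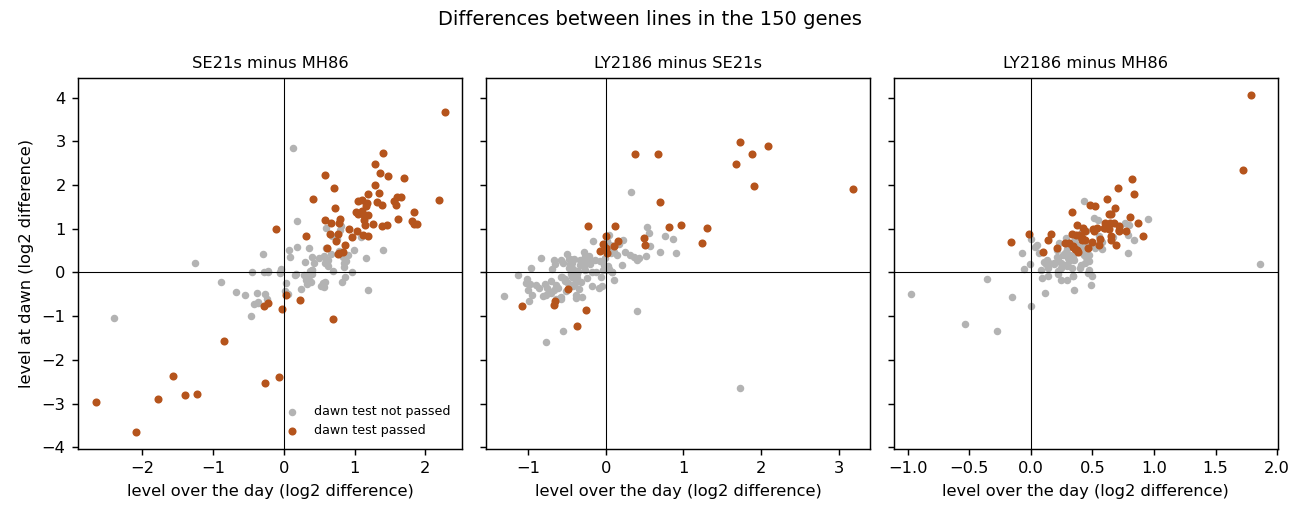
For each pair of lines, the log2 difference of the 150 genes in level over the day (horizontal axis) against that at dawn (vertical axis), 1 point per gene; coloured points passed the dawn test (73, 30 and 59 genes) and grey points did not. In the panel for LY2186 minus MH86 all coloured points lie above 0, while the other panels have coloured points on both sides.

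The third comparison took the level over the whole series, with each line set against another at the same 17 times. With 1 library per line and time, the spread behind its p-values includes changes of the line gap with the hour. Libraries 3 h apart were taken as independent. SE21s was higher than MH86 in 99 of the 150 genes and lower in 19. The 118 genes called are 78.7% of the 150, against a background of 69%, with 28.6% higher and 40.4% lower. Without the 5 genes that fall under the floor of 5 FPKM when 1 line is left out, 114 were called. The level calls given below are then 75 between LY2186 and SE21s and 65 between LY2186 and MH86. The median difference was 0.62 on the log2 scale, while over all genes it was −0.08. This level averages over all hours and so takes in the late night gap. At single hours the median over the 150 genes was 1.93 at hour 21, 0.41 at hour 0, 0.40 at hour 12 and 0.01 at hour 3. How far the level calls rest on the late night gap was not tested. LHY ran from 3.15 to 4175 FPKM in SE21s with a median of 178 and from 0.931 to 2040 in MH86 with a median of 55.0. LHY was higher in SE21s by 1.89 ± 0.30 (limma, adjusted p = 1.1e-06). PSY2 ran from 1.99 to 304 FPKM in SE21s and from 0.474 to 89.3 in MH86, and was higher by 2.19 ± 0.27 (limma, adjusted p = 9.7e-09). SIG5 was higher by 1.40 ± 0.31, LOC_Os06g51260 by 0.86 ± 0.18 and RDD1 by 0.83 ± 0.23 (limma, adjusted p = 0.0002, 8.5e-05 and 0.0018).

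COL4, the flowering repressor gene, was higher by 0.68 ± 0.21 (limma, adjusted p = 0.004). LOC_Os02g46030 passed with 0.69 ± 0.29 (limma, adjusted p = 0.036), but not with no filter on low values (0.057) or without ZT18, ZT21, ZT39, ZT42 or ZT45. SWEET14 did not pass, at −0.42 ± 0.21 (limma, adjusted p = 0.084), but did without ZT12, ZT15 or ZT18. Of the unnamed genes, LOC_Os02g07930 (2.27 ± 0.37) and LOC_Os01g47630 (1.84 ± 0.31) were furthest above MH86 (limma, adjusted p = 1.7e-06 and 3.7e-06). LOC_Os11g05700 (−2.65 ± 0.19) and LOC_Os01g04800 (−2.39 ± 0.33) were furthest below it (limma, adjusted p = 7.3e-15 and 9.3e-08). Taken line by line, LOC_Os01g04800 was highest at dawn only in SE21s, and at hour 15 in LY2186 and hour 18 in MH86.

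The lists that hold the named genes moved in different ways. All 5 listed plastid regulators, SIG5 among them, were higher in SE21s than in MH86 over the day, as were 3 of 4 carotenoid genes, with 1 lower. Of the 13 clock genes 1 was higher, which was LHY, and 5 were lower. Of the 6 CCA1-type MYB genes 3 were higher and 1 lower. Of 12 flowering genes tested 5 were higher and 4 lower, and of 11 sugar genes 4 were higher and 4 lower. Among leaf markers, 14 of 15 antenna genes, which encode light-harvesting proteins, were higher and 1 lower, and 3 of 4 Rubisco genes were higher. Summed antenna levels ran from 663 to 70797 FPKM in SE21s and from 89.0 to 32607 in MH86, and their part in these differences was not tested. In bulk leaf, fewer cells of a type and less RNA per cell cannot be told apart.

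The hybrid was lower than SE21s in 53 genes and higher in 23 (background 57.2%, with 32.8% higher and 24.5% lower), with a median of −0.25. The 76 genes called are 50.7% of the 150, under the background. Against MH86 the hybrid was higher in 64 and lower in 2, or 44% called (background 32.4%, with 14.8% higher and 17.6% lower), with a median of 0.40. LHY differed from SE21s by −0.98 ± 0.30 and from MH86 by 0.91 ± 0.30 (limma, adjusted p = 0.0054 and 0.018). PSY2 differed by −1.32 ± 0.27 and 0.87 ± 0.27 (limma, adjusted p = 9.6e-05 and 0.013). Both genes thus lay between the parents in the hybrid. SIG5 (−0.97 ± 0.31) and LOC_Os06g51260 (−0.67 ± 0.18) were lower than in SE21s (limma, adjusted p = 0.0089 and 0.002) but missed the threshold against MH86 (limma, adjusted p = 0.31 and 0.45).

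RDD1 stood in the hybrid 0.78 ± 0.23 above MH86 (limma, adjusted p = 0.0079), with no call against SE21s (−0.04 ± 0.23; limma, adjusted p = 0.89). COL4 was higher than in MH86 by 0.56 ± 0.21 (limma, adjusted p = 0.037), a call lost with no filter on low values (0.058) or without any of 8 single time points. SWEET14 ran from 4.80 to 84.1 FPKM in LY2186 and from 2.56 to 84.0 in SE21s. This sucrose exporter gene was higher in the hybrid than in SE21s by 0.90 ± 0.21 (limma, adjusted p = 0.00056), while against MH86 it missed the threshold (0.49 ± 0.21; limma, adjusted p = 0.079). Among the unnamed genes, LOC_Os01g04800 was higher than in SE21s by 3.18 ± 0.33 and LOC_Os04g31120 by 2.10 ± 0.22 (limma, adjusted p = 5.7e-10 and 8.3e-10). LOC_Os01g47630 (−1.13 ± 0.31) and LOC_Os01g13390 (−1.08 ± 0.20) were lower (limma, adjusted p = 0.0025 and 1.8e-05). Against MH86, LOC_Os12g24580 (1.79 ± 0.42) and LOC_Os02g07930 (1.72 ± 0.37) were furthest above, and the 2 lower genes were LOC_Os11g05700 (−0.97 ± 0.19) and LOC_Os01g40280 (−0.35 ± 0.14) (limma, adjusted p = 0.0012, 0.00039, 9.7e-05 and 0.045).

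Set against the mean of its parents on the log2 scale, the hybrid differed in 28 genes (background 26.8%, with 16.3% higher and 10.5% lower), 26 higher and 2 lower. These are 18.7% of the 150, under the background, and the median was 0.06. SWEET14 was the only named gene called, 0.70 ± 0.19 above the mid-parent value (limma, adjusted p = 0.0052). LHY (−0.04 ± 0.26) and PSY2 (−0.23 ± 0.23) were not called (limma, adjusted p = 0.93 and 0.5). LOC_Os01g04800, whose highest hour was 15 in LY2186 and 18 in MH86, was furthest above, at 1.98 ± 0.29. It was followed by LOC_Os05g31140 at 1.19 ± 0.24 (limma, adjusted p = 2e-06 and 0.00041). LOC_Os01g04800 ran from 2.33 to 282 FPKM in LY2186, with a median of 65.1, and the medians were 2.19 in SE21s and 22.3 in MH86. The 2 lower genes were LOC_Os01g40280 (−0.34 ± 0.12) and LOC_Os02g17500 (−0.23 ± 0.09) (limma, adjusted p = 0.033 and 0.048). Most level calls depend on comparing lines at matched times: with time point left out of the model, the calls between SE21s and MH86 fell from 118 to 16.

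The fourth comparison took the drop from dawn to dusk (hour 0 minus hour 12) and asked whether it differed between lines. SE21s and MH86 differed in 26 genes (background 7.56%, with 2.87% wider and 4.68% narrower), with a wider drop in SE21s in 11 and a narrower one in 15. The median was 0.04 on the log2 scale. Quantile scaling gave 9 wider and 28 narrower and a median of −0.22, so the balance of directions depends on the scaling. With time point as a block 46 genes were called, 19 wider and 27 narrower. None of the 8 named genes passed. LHY had 0.04 ± 0.38 (limma, adjusted p = 0.98), and LOC_Os06g51260 came closest with −1.02 ± 0.35 (limma, adjusted p = 0.078). With time point as a block LOC_Os02g46030, RDD1 and LOC_Os06g51260 passed, each narrower in SE21s (adjusted p = 0.019, 0.039 and 0.049), as they did with quantile scaling (adjusted p = 0.023, 0.016 and 0.019).

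LOC_Os01g22010 had the wider drop in SE21s, from 626, 523 and 626 FPKM at dawn to 6.49 and 7.57 at dusk, while in MH86 it went from 150, 92.6 and 144 to 10.1 and 14.7. The difference was 2.98 ± 0.32 (limma, adjusted p = 2.6e-07), and LOC_Os02g07930 had 3.24 ± 0.92 (limma, adjusted p = 0.026). The narrower drops were led by LOC_Os04g31120, at −3.79 ± 0.45 (limma, adjusted p = 1.2e-06), and LOC_Os05g31140, at −3.73 ± 0.76 (limma, adjusted p = 0.0019). The dusk values of LOC_Os04g31120 overlapped between the parents, at 3.41 and 2.55 FPKM in SE21s and 3.19 and 2.16 in MH86, so its difference lies in the dawn level given above.

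LY2186 and SE21s differed in the drop in 16 genes (background 1.98%, with 1.05% wider and 0.938% narrower), 14 wider in the hybrid and 2 narrower, or 27 with time point as a block. Without the LY2186 library at ZT36 the count was 6, and without the SE21s library at ZT36 it was 8. LOC_Os03g04100 was at 525, 637 and 979 FPKM at dawn in LY2186 and at 143, 78.5 and 104 in SE21s, and its drop was wider by 3.26 ± 0.51 (limma, adjusted p = 0.00036). With quantile scaling LOC_Os02g46030 and RDD1 also passed, wider in the hybrid (adjusted p = 0.041 and 0.014). LOC_Os05g31140 followed LOC_Os03g04100 with 2.81 ± 0.76 (limma, adjusted p = 0.046). The 2 narrower genes were LOC_Os04g46880 (−2.51 ± 0.42) and LOC_Os09g14600 (−1.70 ± 0.34) (limma, adjusted p = 0.00065 and 0.0048). At dusk LOC_Os04g46880 stood at 43.5 and 28.4 FPKM in LY2186 and at 2.99 and 2.27 in SE21s. LY2186 and MH86 differed in 2 genes (background 0.796%, with 0.261% wider and 0.534% narrower), LOC_Os03g18070 (1.97 ± 0.38) and LOC_Os01g22010 (1.82 ± 0.32), both wider in the hybrid (limma, adjusted p = 0.0073 and 0.0028). None was narrower, and at an unadjusted p under 0.05 the limma split was 29 wider and 8 narrower. With time point as a block the count was 7, and quantile scaling gave 3 wider and 1 narrower.

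The last comparison set the second day against the first within line and clock hour. It called 48 genes (background 42.3%, with 25.8% higher and 16.5% lower), 28 higher and 20 lower on the second day, with a median of 0.03, and the share of 32% is under the background. Median-ratio scaling gave 19 higher and 25 lower. LHY had 0.12 ± 0.08 and PSY2 0.08 ± 0.09, and neither passed (limma, adjusted p = 0.23 and 0.47). COL4 was lower on the second day, by a fitted difference of −0.72 ± 0.16 (limma, adjusted p = 0.0014). Its ZT0 libraries stood at 119, 123 and 55.6 FPKM in SE21s, LY2186 and MH86, and its ZT24 libraries at 48.6, 48.1 and 29.9, lower in all 3 lines. SWEET14 was higher by 0.82 ± 0.19 (limma, adjusted p = 0.0018), with ZT24 above ZT0 in all 3 lines. LOC_Os05g35140 (1.08 ± 0.17) and LOC_Os02g04170 (0.69 ± 0.11) were furthest above, and LOC_Os06g44450 (−0.63 ± 0.14) and LOC_Os01g52260 (−0.59 ± 0.15) furthest below (limma, adjusted p = 0.00016, 0.00013, 0.0013 and 0.0032). Leaving out 1 line lowered the count to 20 (without LY2186), 24 (without MH86) or 34 (without SE21s).

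By position, the 150 genes lay on all 12 chromosomes, with 28 on chromosome 1, 24 on chromosome 3 and 21 on chromosome 2 at the high end. Per chromosome they made up 0.616% to 1.61% of the genes that averaged 5 FPKM or more. Next to each other by locus number in the table were 4 pairs, and their log2 profiles over 51 libraries had r = 0.955 (LOC_Os01g50450 and LOC_Os01g50460), 0.849 (LOC_Os05g50840 and LOC_Os05g50850), 0.837 (LOC_Os06g49110 and LOC_Os06g49120) and 0.964 (LOC_Os08g04830 and LOC_Os08g04840). How fragments shared by near-identical or overlapping neighbours were counted is not given in the sources used here, so these pairs are uncertain as separate genes.

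Among the 150, LOC_Os02g30550 has a profile broken by zeros. It is listed at 0 in all of its SE21s and LY2186 libraries at hour 3 but at 148 FPKM at ZT42 in MH86, and 12 of its zeros lie between high values. A 0 of this kind can stand for an estimate that failed. It is 1 of 18 genes of the 150 with any zero and 1 of 2 with a doubtful one.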

How the data were processed

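The study measured flag leaf messenger RNA in 51 libraries of 3 rice lines at 17 time points. The authors deposited 1 table of FPKM values per gene and library. TopHat2 and Cuffdiff were used, per the submitters' processing notes. Versions, genome build, annotation and strand setting: not given in the sources used here. Depth is unknown, so no counting interval is given.

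The 16842 genes averaging 1 FPKM or more were tested on log2(FPKM + 0.5) with limma 3.58.1 in R 4.3.3, with its trended, robust prior. Tests were two-sided, and p-values were adjusted by Benjamini and Hochberg's method over all of these genes, with a threshold of 0.05. Fold changes on this scale understate the change of low genes. FPKM is relative to library size, so abundant genes that differ between libraries could move others, which was not tested. The FPKM total ran from 824871 to 2.47e+06 per library, and the upper quartile of values above 0 from 16.7 to 22.2. Levels over the day were fitted with line and time point. Hour contrasts were fitted with 24 groups of line by clock hour, taking libraries of the same hour on different days as replicates, and the day contrast with day beside these groups.

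All lines share each time point by the labels, which is where the pairing comes from. Deviations of libraries of 1 time point from their line and hour means had a median correlation across genes of 0.174 (−0.357 to 0.577) over 30 values, of which 23 were above 0.1 (the 2 libraries of an hour mirror each other and count once). Blocked values stand beside results they change.

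The members and the gene lists were chosen with earlier results of these data known. Listed loci carry symbols from general knowledge of rice genes. Named in the text are all members on those lists, the 2 others with the largest range, up to 2 others per direction and comparison with the largest called difference, neighbouring loci, and the genes at the edge of the rule. LOC_Os02g30550 and the non-member clock and MYB genes were chosen after their values were seen. A 0 counted as doubtful if 2 or more of its comparison values, the adjacent times and the matching hour a day apart, were 10 FPKM or higher in that line (446 values in 124 genes, 14 of them in 2 of the 150 genes), and was kept as deposited. The steps were tested on simulated data. Alternatives covered the pseudocount, the filter, the scaling, the prior, doubtful zeros, the block, and leaving out times, libraries or lines.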

Additional observations from a re-analysis of the deposited data

Results flagged for a closer look

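The change from late night to early morning, and from dawn to dusk, differed between lines by a test of the difference itself (limma, line by clock hour). Between SE21s and MH86 the late night contrast (hour 21 minus hour 3) differed in 99 of the 150 genes. On the log2 scale it did so by 4.37 for PSY2, 4.35 for LHY, 4.24 for SIG5, 3.96 for RDD1, 2.96 for LOC_Os02g46030 and 2.31 for LOC_Os06g51260. In each of these 6 genes both SE21s libraries at hour 21 were above both MH86 libraries.

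Between LY2186 and SE21s the late night contrast differed in 56 genes, among them PSY2 (−3.28), LHY (−2.77), RDD1 (−2.49), SIG5 (−2.28) and LOC_Os06g51260 (−1.42). Between LY2186 and MH86 it differed in 2 genes, of which RDD1 had 1.47. The contrast of dawn and dusk differed in 26 genes between SE21s and MH86, in 16 between LY2186 and SE21s and in 2 between LY2186 and MH86.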

How the results depend on the processing

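Counts of calls among the 150 genes mostly kept within 1.5 times their value. With no replicate block, that is with time point left out, level calls went from 118 to 16 (SE21s and MH86), 76 to 6 (LY2186 and SE21s), 66 to 0 (LY2186 and MH86) and 28 to 1 (mid-parent); the daily swing then enters the residual spread by construction. With time point as a replicate block, the pairing by time raised the late night count of LY2186 and MH86 from 2 to 7 and the dawn to dusk counts from 26 to 46, 16 to 27 and 2 to 7, and it moved no other count by over 1.5 times. That late night count of 2 became 0 with a pseudocount of 0.1 or a minimum mean of 5 FPKM and 1 with median-ratio or quantile scaling. The dawn to dusk count of LY2186 and MH86 was 4 with quantile scaling. The cause of these moves was not tested.

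Leaving out each time point in turn gave 112 to 121, 72 to 81, 56 to 71 and 21 to 28 level calls, in the order above. Leaving out each library in turn gave, for SE21s and MH86, LY2186 and SE21s, and LY2186 and MH86 in that order, 60 to 71, 23 to 25 and 26 to 53 calls at dawn, 85 to 96, 24 to 72 and 0 to 6 in late night, and 18 to 25, 6 to 15 and 1 to 4 from dawn to dusk. Leaving out each line gave 20 to 34 day calls. No value of a named gene changed sign where it passed the threshold in the main or the other setting. Sign changes between values that both missed the threshold were not counted. Under other settings 960 values of named genes kept their side of the threshold, 26 lost and 14 gained a call; under leaving out, 1104 kept theirs, 34 lost and 6 gained one. With a pseudocount of 0.1 or 1 in the rule, 141 or 144 of the 150 genes stayed. What depth limits could not be assessed without fragment counts.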
